A study of Mus musculus with 6 samples.

Results

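The DNA replication genes examined here are 47 genes for origin licensing, the replicative helicase, the polymerases, the sliding clamp and nucleotide supply. They were taken by gene symbol from the 18518 symbols of the deposited expression table, and all 47 had a row. The samples were E14Tg2A cells, an established mouse embryonic stem cell line, in 2 groups of 3 RNA sequencing libraries, BACH1-KO and WT. BACH1-KO cells were made with CRISPR/Cas9, by transient transfection of LentiCRISPR V2 plasmids with guides to Bach1 and puromycin selection. Clones grown from single cells were sorted, and how many clones stand behind the 3 BACH1-KO libraries is not given. WT cells carry no edit by their label. Both groups had 2 days of culture in serum medium, with leukemia inhibitory factor, which sustains self-renewal, at 200 units/ml. The series compares the genotypes to learn how BACH1, a heme-binding transcription factor, bears on pluripotency and differentiation.

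Replication starts when the origin recognition complex, CDC6 and CDT1 load the ring of MCM2 to MCM7 onto DNA in G1, a step called licensing that geminin blocks by binding CDT1. In S phase the kinase CDC7 with DBF4 and cyclin-dependent kinases turn the loaded ring into an active helicase together with CDC45 and the GINS complex, and the polymerases, the clamp PCNA and its loader RFC then copy the strands. Many of these genes are known targets of E2F transcription factors. Mouse embryonic stem cells have a short G1, spend much of their cycle in S phase and are known for high levels of replication factors.

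Replication genes moved in both directions in the knockout cells, mostly by less than 1.5-fold. Levels are in FPKM, a unit scaled to transcript length and library size that allows genes to be compared within a library. A gene is said to have risen or fallen where the limma test across all genes gave a Benjamini-Hochberg adjusted p under 0.05 for BACH1-KO against WT, and log2 fold changes are on the log2(FPKM + 1) scale. Bach1 itself had 10.51, 10.4 and 10.4 FPKM in the BACH1-KO libraries, against 7.97, 8.39 and 8.47 FPKM in WT (log2 fold change 0.30, SE 0.05, adjusted p = 5.15e-04), and a transcript level does not check an edit of the coding sequence. All 47 replication genes passed the filter of a mean of 1 FPKM. Of these, 17 rose, 26 fell and 4 did not pass. Thus 36.2% of the replication genes rose and 55.3% fell, against 37.3% and 39.7% of all 12187 tested genes (77.0% in either direction). Their median log2 fold change was -0.18, and that of all tested genes was -0.012. The libraries of the genotypes did not overlap for 43 of the 47 genes, and for 79.3% of all tested genes. In bulk RNA, fewer cells in S phase and less of these transcripts per cell cannot be told apart.

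The replication genes are abundant, and abundant genes leaned to the lower side as a whole. Their mean levels over the 6 libraries ran from 13.9 to 453 FPKM with a median of 93.7, while the median tested gene stood at 11.6 FPKM. Among the 5276 tested genes within that range of levels, 31.3% rose and 49.3% fell (80.6% in either direction), with a median log2 fold change of -0.11. Quantile normalization, which forces the same distribution on every library, brought the median of the replication genes to 6.82e-04, with 18 higher and 19 lower. With median-of-ratios scaling, 12 were higher and 26 lower. The changes were also modest in size. The median absolute log2 fold change was 0.28 for the replication genes, 0.34 for tested genes in their range of levels and 0.38 for all tested genes. By the ratio of FPKM means 8 replication genes fell and 2 rose by at least 1.5-fold, against 16.7% and 20.5% of all tested genes. At least 2-fold falls were seen for 2 of them, Rfc1 and Tk1, and at least 2-fold rises for 0, against 6.05% and 11.4% of all tested genes. Tested against a fold change of 1.5, Rfc1, Tk1, Lig1 and Gmnn passed, all lower in BACH1-KO.

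Among all tested genes of this range of levels, those with long transcripts leaned further to the lower side. The median of the replication genes was also lower with length, while the share of them that fell was similar in each length class. The 9 replication genes whose longest annotated transcript exceeds 4000 bases had a median log2 fold change of -0.40. The 24 above 2000 and up to 4000 bases had -0.19, and the 14 of 2000 bases or less had -0.13. Among tested genes in the replication genes' range of levels above 4000 bases, the median log2 fold change was -0.24. It was -0.092 for the middle class and -0.045 for those of 2000 bases or less. Of the 9 longer replication genes 5 fell (55.6%), namely Rfc1, Rpa1, Mcm10, Cdc6 and Mcm6, and of the 14 shorter ones 8 fell (57.1%), namely Tk1, Gmnn, Gins4, Pold2, Rfc3, Gins1, Rpa2 and Pcna. Among all tested genes of this range the shares were 61.3% and 44.0%. Of the 24 replication genes in the middle class 13 fell (54.2%), against 48.4% of all tested genes there. Of the longer replication genes 1 rose, of the middle class 10, and of the shorter ones 6. The part of transcript length in these differences was not tested.

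**Figure D1:**
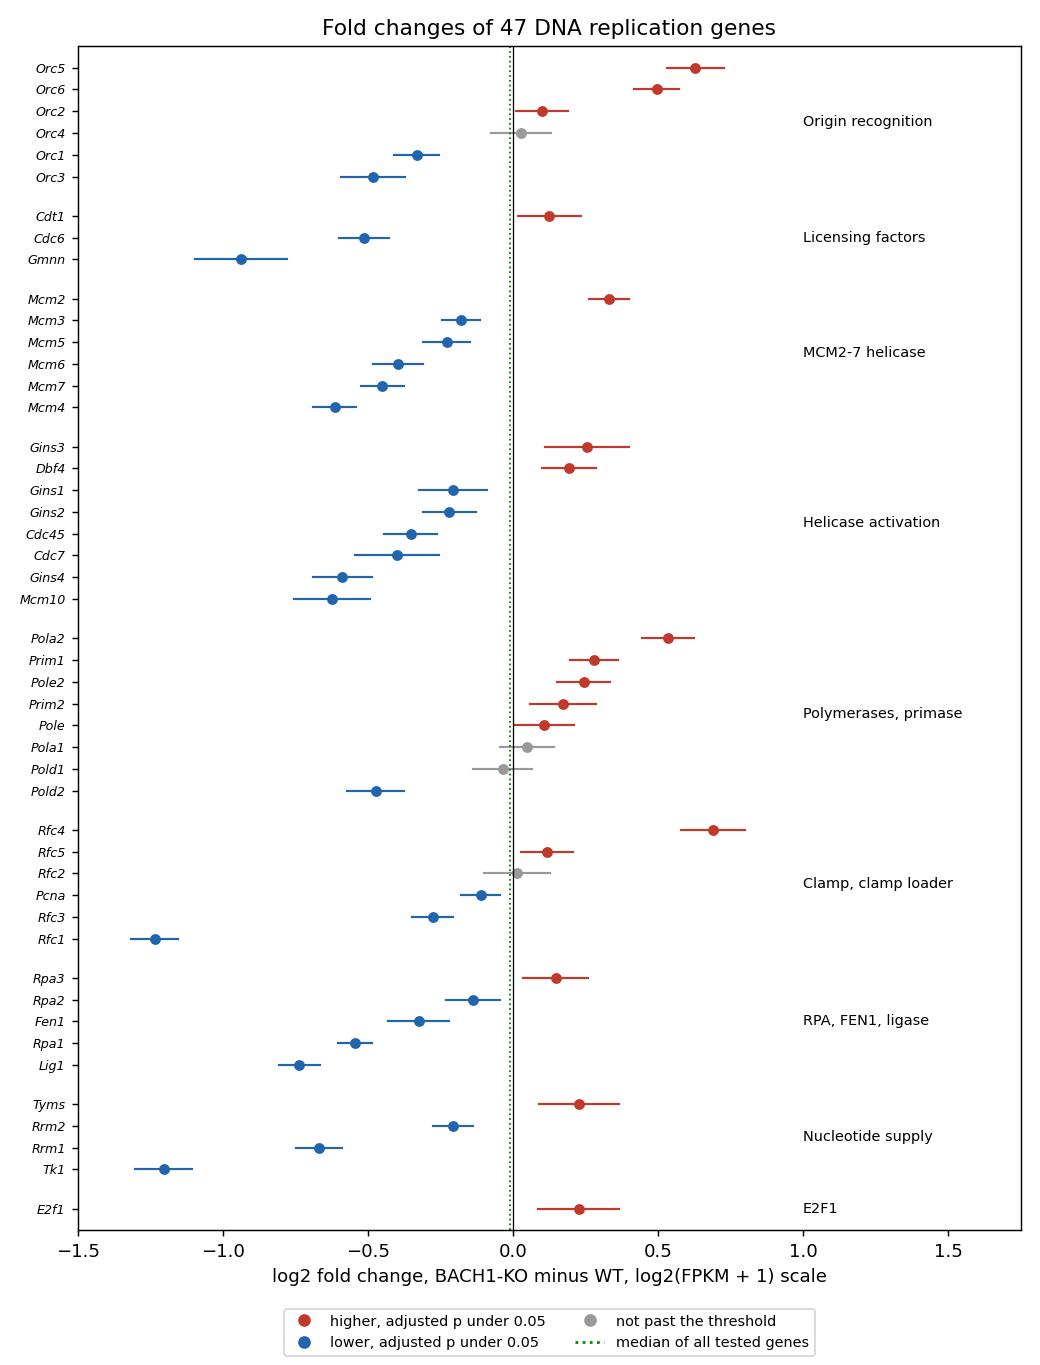
Log2 fold change of each of the 47 replication genes, from log2(FPKM + 1) values of BACH1-KO against WT, with 95% intervals from limma (3 libraries per group), grouped by role. Points on both sides of 0 occur in 8 of the 9 role groups, E2f1 standing alone, and Rfc1 at -1.24 and Tk1 at -1.20 lie farthest from 0.

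The genes of the origin recognition complex, which marks the sites where replication can start, split by subunit, with 3 higher, 2 lower and 1 not past the threshold. Counts of this and the following role groups, all small, stand beside 37.3% higher and 39.7% lower for all tested genes. Among tested genes in the replication genes' range of levels, 31.3% rose and 49.3% fell. Orc5 had 76.7, 77.0 and 82.1 FPKM in the BACH1-KO libraries, against 49.9, 48.8 and 52.7 FPKM in WT (log2 fold change 0.63, SE 0.04, adjusted p = 3.39e-06). Orc6, the smallest and most loosely held subunit, had 208, 208 and 205 FPKM in the BACH1-KO libraries, against 154, 144 and 143 FPKM in WT (log2 fold change 0.49, SE 0.03, adjusted p = 3.92e-06). Every knockout library was above every WT library for both genes. Orc1, the subunit whose protein is turned over with the cell cycle in mammals, had 33.2, 34.4 and 34.7 FPKM in the BACH1-KO libraries, against 43.5, 42.7 and 43.5 FPKM in WT (log2 fold change -0.33, SE 0.03, adjusted p = 3.86e-05). Orc3 had 13.6, 14.0 and 14.9 FPKM in the BACH1-KO libraries, against 19.5, 20.5 and 20.5 FPKM in WT (log2 fold change -0.48, SE 0.05, adjusted p = 3.32e-05), so that all 3 knockout libraries were below WT for Orc1 and Orc3. Orc2 was at 51.3 ± 2.06 FPKM in BACH1-KO and 47.8 ± 0.943 FPKM in WT (SD, n = 3 libraries here and below), and Orc4 was at 23.1 ± 0.341 FPKM in BACH1-KO and 22.7 ± 1.14 FPKM in WT. Orc4 did not pass (log2 fold change 0.028, 95% interval -0.077 to 0.13, adjusted p = 0.595). The rise of Orc2 (log2 fold change 0.10, adjusted p = 0.0451) was lost without the first, second or last WT library or the second or last knockout library (adjusted p = 0.0526 to 0.162), and with median-of-ratios scaling (adjusted p = 0.199) or a constant prior variance (adjusted p = 0.0826).

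In level, Orc6 was the highest and Orc3 the lowest of the 6 genes in both genotypes. The knockout libraries ordered them Orc6, Orc5, Orc2, Orc1, Orc4 and Orc3 with no overlap between neighbours, and WT gave the same order with overlapping Orc5 and Orc2 libraries. The ratio of Orc6 to the mean of Orc1 to Orc5 was 5.32, 5.21 and 4.94 in the BACH1-KO libraries, against 4.17, 3.94 and 3.85 in WT. The summed level of the 6 genes was 409 ± 4.41 FPKM in BACH1-KO and 331 ± 5.495 FPKM in WT. Exons of Orc5 overlap those of Gm15421 on the same strand, a gene at 12.2 ± 11.4 FPKM in BACH1-KO and 8.29 ± 0.609 FPKM in WT, and reads in the shared part could go to either. Exons of Orc6 overlap on the opposite strand with Vps35, which fell, at 192 ± 9.26 FPKM in BACH1-KO and 219 ± 4.01 FPKM in WT. Such overlaps with another listed gene occur in 11 of the replication genes, 1 of them on the same strand, and not all are named here.

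Of the licensing factors, the inhibitor Gmnn fell most. Gmnn (GRCm38 chromosome positions here and below: chromosome 13, 24751845 to 24761923, minus strand), which encodes geminin, had 146, 125 and 126 FPKM in the BACH1-KO libraries, against 245, 274 and 247 FPKM in WT (log2 fold change -0.94, SE 0.07, adjusted p = 5.22e-06). Its level in BACH1-KO was 0.520 of that in WT, and every knockout library was below every WT library. Cdc6, the ATPase that joins the origin recognition complex to load MCM rings, had 27.8, 28.9 and 29.7 FPKM in the BACH1-KO libraries, against 41.6, 42.2 and 41.0 FPKM in WT (log2 fold change -0.51, SE 0.04, adjusted p = 5.10e-06). Cdt1, which brings the MCM ring to the origin, had 103, 103 and 104 FPKM in the BACH1-KO libraries, against 89.1, 93.9 and 101.3 FPKM in WT (log2 fold change 0.12, SE 0.05, adjusted p = 0.0385). All knockout libraries were above WT for Cdt1, by a margin smaller than the spread among the WT libraries. That call was lost without the first or second WT library or any 1 knockout library (adjusted p = 0.0751 to 0.101), with median-of-ratios scaling (adjusted p = 0.142), with a constant prior variance (adjusted p = 0.0754) and when low genes were kept (adjusted p = 0.0546). The transcript ratio of Gmnn to Cdt1 was 1.43, 1.22 and 1.21 in the BACH1-KO libraries, against 2.75, 2.92 and 2.44 in WT. That the genotypes did not overlap in this ratio follows from the opposite directions of the genes.

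Among the 6 genes of the MCM2 to MCM7 helicase, 5 fell and Mcm2 rose. Mcm4 had 76.2, 77.7 and 77.7 FPKM in the BACH1-KO libraries, against 116, 118 and 123 FPKM in WT (log2 fold change -0.62, SE 0.03, adjusted p = 8.83e-07). Mcm7 had 204, 211 and 205 FPKM in the BACH1-KO libraries, against 274, 286 and 289 FPKM in WT (log2 fold change -0.45, SE 0.03, adjusted p = 4.41e-06), and Mcm6 had 137, 136 and 139.9 FPKM in the BACH1-KO libraries, against 173, 182 and 189 FPKM in WT (log2 fold change -0.40, SE 0.04, adjusted p = 2.41e-05). The knockout libraries of these genes were all below WT. Mcm3 and Mcm5 fell less, Mcm3 to 129 ± 2.30 FPKM, against 146 ± 1.29 FPKM in WT (log2 fold change -0.18, adjusted p = 5.10e-04), and Mcm5 to 183 ± 3.38 FPKM, against 215 ± 8.06 FPKM in WT (log2 fold change -0.23, adjusted p = 4.31e-04). Mcm2 (chromosome 6, 88883474 to 88898780, minus strand), whose protein also binds histones H3 and H4 at the fork, had 153, 159 and 152 FPKM in the BACH1-KO libraries, against 123, 121 and 124 FPKM in WT (log2 fold change 0.33, SE 0.03, adjusted p = 2.08e-05). Its 3 knockout libraries were all above WT, and it stayed higher past the threshold under each of the 13 alternatives run but the test against a fold change of 1.5. Under quantile normalization Mcm3 had a log2 fold change of 0.00068 (adjusted p = 0.984) and Mcm5 was not past the threshold (adjusted p = 0.341).

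The proteins form a ring with 1 copy of each subunit, and the transcript ratio of Mcm2 to the mean of Mcm3 to Mcm7 was 1.05, 1.07 and 1.04 in the BACH1-KO libraries, against 0.670, 0.641 and 0.640 in WT. In level, the knockout libraries ran Mcm7, Mcm5, Mcm2, Mcm6, Mcm3 and Mcm4, while WT ran Mcm7, Mcm5, Mcm6, Mcm3, Mcm2 and Mcm4, the last 2 with overlapping libraries. The summed level of the 6 genes was 888 ± 11.97 FPKM in BACH1-KO and 1067 ± 29.2 FPKM in WT. Mcm2 lies on chromosome 6, where 321 of 541 tested genes rose and 95 fell. The median log2 fold change on chromosome 6 was 0.31, the highest of the chromosomes examined (1 to 19 and X), the next being 0.093 on chromosome 12. Rpa3, the other replication gene on chromosome 6, also rose, and the part of the chromosome in both rises was not tested. Chromosome 11 had the lowest median log2 fold change, -0.125, and 324 of its 1006 tested genes rose and 484 fell. The replication genes on chromosome 11, Cdc6, Pold2, Rpa1 and Tk1, all fell, and the part of that chromosome was not tested either. Exons of Mcm7 overlap on the opposite strand with Cops6, which was at 221 ± 10.1 FPKM in BACH1-KO and 152 ± 8.02 FPKM in WT.

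**Figure D2:**
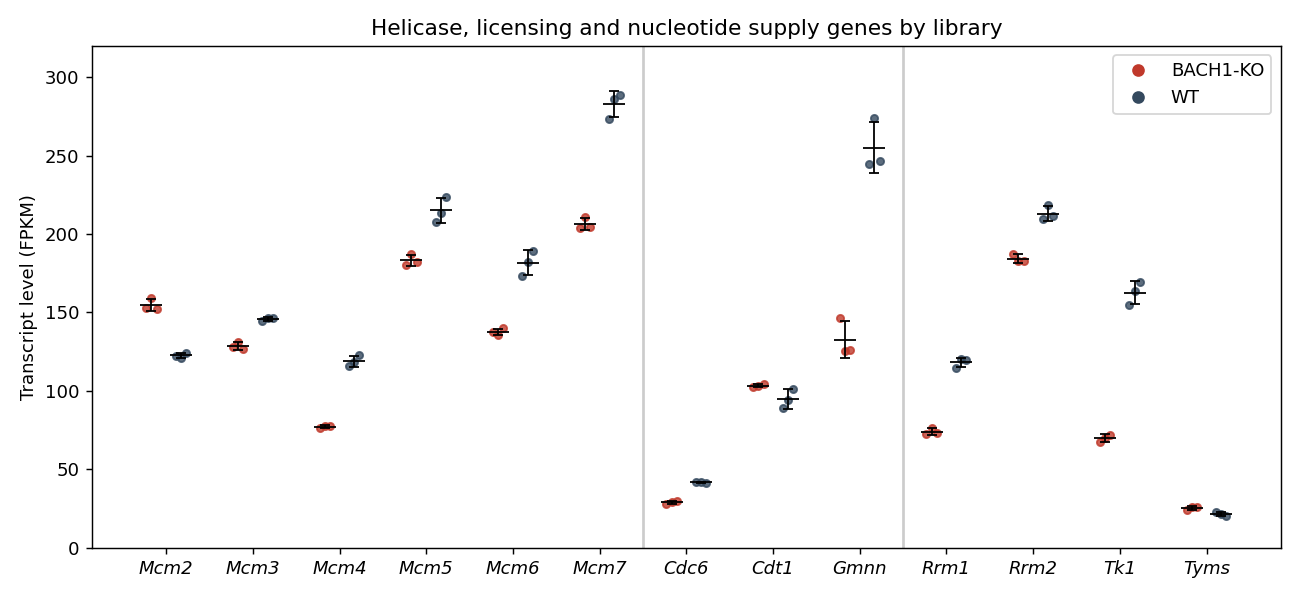
Transcript level in FPKM of the helicase genes, the licensing factors and the nucleotide supply genes in each library, BACH1-KO left and WT right for each gene, with the mean and SD of 3 libraries per group. Mcm2, Cdt1 and Tyms are the genes whose BACH1-KO libraries all lie above WT, and Gmnn and Tk1 show wide gaps in the other direction.

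Since E2F sites are a known shared feature of these promoters, the promoter letters were set beside the directions. RefSeq promoter windows (build GRCm38.p6, 250 bases before to 50 bases after a gene's start) were at hand for 39 of the 47 genes. Gmnn, Mcm4, Gins1, Gins2, Gins4, Prim2, Pole and Rfc2 had no window and were not searched. The 4 octamers TTTGGCGC, TTTCCCGC, TTTGCCGC and TTTCGCGC, forms of the E2F site, were searched on both strands. At least 1 octamer was in a window of 14 of the 39 genes (35.9%), and in 2.60% of all 27025 symbols with a window. Of the genes with an octamer, 9 fell, 3 rose and 2 did not pass, and of those without, 12 fell, 12 rose and 1 did not pass. The median log2 fold change was -0.25 with an octamer and 0.028 without one, a difference that was not tested. The stretches around an octamer are shown for 5 of the 9 genes that fell (Cdc6, Mcm3, Mcm5, Mcm6, Mcm7) and for the 3 that rose (Cdt1, Gins3, Pole2). Lig1, Orc1, Orc3 and Rfc3 also held an octamer and fell. Capitals mark 1 octamer in each line, on either strand, and each line reads 5′ to 3′ along the gene. Further octamers in the windows of Mcm3, Mcm5, Mcm6 and Mcm7 are not marked.
Cdc6: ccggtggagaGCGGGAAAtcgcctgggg
Mcm3: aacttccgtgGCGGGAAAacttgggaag
Mcm5: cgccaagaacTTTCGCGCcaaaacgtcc
Mcm6: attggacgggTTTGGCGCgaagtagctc
Mcm7: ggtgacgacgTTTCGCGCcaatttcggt
Cdt1: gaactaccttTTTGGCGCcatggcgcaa
Gins3: cgagtgcggcGCGGGAAAgcgagtttga
Pole2: gtcggcggtgGCGCCAAAtcgcgaacat
These stretches lie at chr11:98908003-98908030 (plus strand), chr1:20820276-20820303 (minus), chr8:75109346-75109373 (plus), chr1:128359735-128359762 (minus), chr5:138171850-138171877 (minus), chr8:122568037-122568064 (plus), chr8:95633508-95633535 (plus) and chr12:69228163-69228190 (minus). Counted from the RefSeq start, the octamer begins 138 bases before it in Cdc6, and 16, 32 and 10 bases after it in Mcm7, Cdt1 and Pole2. In the GENCODE annotation Cdc6 starts at 98907801 and Mcm7 at 138172422 (minus strand), upstream of the RefSeq starts. The octamers of these genes thus lie inside the genes as annotated there. Octamers on the opposite strands overlap each other in the windows of Mcm5 and Mcm6, and 1 octamer of Mcm7 overlaps a CCAAT box. GCGGGAAA, which is TTTCCCGC read on the other strand, stands both in Cdc6, which fell, and in Gins3, which rose.

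The CCAAT box, the letters read by NF-Y, was in windows of 23 of the 39 genes (59.0%), and in 41.1% of all symbols. Of these 23 genes 15 fell and 6 rose, and of all 39 genes 21 fell and 15 rose, a difference that was not tested. TTTGAA, a form of the element of cell cycle genes bound by the MuvB complex, was in 7 of 39 (17.9%), against 20.2% of all symbols. TGANTCAGC, a form of the site of BACH1 and its partner MAF proteins, was in 0 of 39 and in 1.37% of all symbols, searched on both strands in this window only. The window of Mcm2, the helicase gene that rose, is given whole with its CCAAT box (here on the opposite strand, as ATTGG) in capitals, at chr6:88898731-88899030 on the minus strand, and it holds no E2F octamer. TTTGAA, also in this window, is left in lower case.
Mcm2: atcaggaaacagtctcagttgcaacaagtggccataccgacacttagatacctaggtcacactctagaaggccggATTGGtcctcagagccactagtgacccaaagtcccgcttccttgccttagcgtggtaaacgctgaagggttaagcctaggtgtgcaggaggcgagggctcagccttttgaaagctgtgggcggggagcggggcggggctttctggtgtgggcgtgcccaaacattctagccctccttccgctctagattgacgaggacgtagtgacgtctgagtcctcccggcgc

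Genes for the factors that switch the loaded ring into a working helicase mostly fell, with 6 lower and 2 higher of 8. Mcm10, a scaffold that helps the helicase start to unwind, had 41.2, 43.6 and 44.0 FPKM in the BACH1-KO libraries, against 72.7, 64.1 and 63.5 FPKM in WT (log2 fold change -0.62, SE 0.06, adjusted p = 1.93e-05). Gins4 had 76.8, 73.0 and 73.9 FPKM in the BACH1-KO libraries, against 107, 112 and 119 FPKM in WT (log2 fold change -0.59, SE 0.04, adjusted p = 6.13e-06). Both were lower in all 3 knockout libraries. Cdc45, the helicase cofactor, had 44.4, 45.3 and 47.5 FPKM in the BACH1-KO libraries, against 57.6, 57.7 and 60.8 FPKM in WT (log2 fold change -0.35, SE 0.04, adjusted p = 6.56e-05). The kinase gene Cdc7 had 27.5, 28.7 and 28.0 FPKM in the BACH1-KO libraries, against 34.0, 37.8 and 40.7 FPKM in WT (log2 fold change -0.40, SE 0.06, adjusted p = 4.88e-04). Gins1 was at 75.0 ± 3.81 FPKM in BACH1-KO and 86.7 ± 4.53 FPKM in WT, and Gins2 at 164 ± 6.22 FPKM in BACH1-KO and 192 ± 6.84 FPKM in WT, both lower (log2 fold change -0.21, adjusted p = 0.00582 and log2 fold change -0.22, adjusted p = 0.00111) and both not past the threshold under quantile normalization (adjusted p = 0.124 and 0.274). The members of this group that rose were Gins3, at 21.8 ± 0.123 FPKM in BACH1-KO and 18.1 ± 1.69 FPKM in WT (log2 fold change 0.26, adjusted p = 0.00579), and Dbf4, the activating subunit of CDC7, at 89.9 ± 0.944 FPKM in BACH1-KO and 78.6 ± 3.99 FPKM in WT (log2 fold change 0.19, adjusted p = 0.00270).

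GINS is a complex of 4 different subunits, and its transcripts did not move as 1 block, with Gins3 higher and Gins1, Gins2 and Gins4 lower. The ratio of Gins3 to the mean of the other GINS transcripts was 0.209, 0.208 and 0.206 in the BACH1-KO libraries, against 0.157, 0.129 and 0.131 in WT. For the kinase pair, the ratio of Dbf4 to Cdc7 was 3.24, 3.12 and 3.24 in the BACH1-KO libraries, against 2.43, 2.09 and 1.83 in WT. Neither ratio overlapped between the genotypes, which follows from the opposite directions of the genes in it and adds nothing to their calls. The summed level of the 8 genes was 542 ± 4.79 FPKM in BACH1-KO and 651 ± 1.45 FPKM in WT.

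Polymerase and primase genes had more rises than falls, with 5 higher, 1 lower and 2 not past the threshold. Pola2, the regulatory subunit of polymerase alpha, had 36.4, 36.0 and 37.8 FPKM in the BACH1-KO libraries, against 25.9, 24.7 and 24.5 FPKM in WT (log2 fold change 0.53, SE 0.04, adjusted p = 5.49e-06). Prim1, the catalytic primase subunit that makes the RNA primers, had 123, 125 and 133 FPKM in the BACH1-KO libraries, against 105, 103 and 105 FPKM in WT (log2 fold change 0.28, SE 0.04, adjusted p = 1.42e-04). Pole2, the second subunit of the leading strand polymerase epsilon, had 68.9, 72.3 and 67.7 FPKM in the BACH1-KO libraries, against 56.8, 60.7 and 58.5 FPKM in WT (log2 fold change 0.24, SE 0.04, adjusted p = 6.09e-04). The 3 knockout libraries were above WT for each of these genes. Prim2, the large primase subunit, was at 70.6 ± 3.13 FPKM in BACH1-KO and 62.5 ± 3.31 FPKM in WT (log2 fold change 0.17, adjusted p = 0.0117). Pole, the catalytic subunit of polymerase epsilon, was at 14.5 ± 0.319 FPKM in BACH1-KO and 13.3 ± 0.335 FPKM in WT (log2 fold change 0.11, adjusted p = 0.049997) and lay at the threshold. The call of Pole was lost without the second or last WT library or any 1 knockout library (adjusted p = 0.0656 to 0.149) and with median-of-ratios scaling (adjusted p = 0.171).

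Pold2, the second subunit of the lagging strand polymerase delta, was the polymerase gene that fell, with 120.2, 128 and 130.4 FPKM in the BACH1-KO libraries, against 171, 171 and 184 FPKM in WT (log2 fold change -0.47, SE 0.04, adjusted p = 1.86e-05). The catalytic subunits of polymerases alpha and delta did not pass. Pola1 was at 26.7 ± 0.681 FPKM in BACH1-KO and 25.8 ± 0.825 FPKM in WT (log2 fold change 0.047, 95% interval -0.047 to 0.14, adjusted p = 0.316), and Pold1 at 30.2 ± 0.855 FPKM in BACH1-KO and 31.1 ± 1.40 FPKM in WT (log2 fold change -0.037, 95% interval -0.14 to 0.066, adjusted p = 0.470). The ratio of Pola2 to Pola1 was 1.40, 1.32 and 1.42 in the BACH1-KO libraries, against 1.03, 0.971 and 0.918 in WT, and the ratio of Pold2 to Pold1 was 4.08, 4.09 and 4.33 in the BACH1-KO libraries, against 5.72, 5.60 and 5.64 in WT. The ratio of Pole2 to Pole, in contrast, overlapped between the genotypes, at 4.88, 5.00 and 4.59 in the BACH1-KO libraries, against 4.20, 4.69 and 4.32 in WT. The summed level of the 8 genes was 501 ± 11.1 FPKM in BACH1-KO and 496 ± 12.6 FPKM in WT, with overlapping libraries.

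The clamp and clamp loader genes held the widest range of fold changes of the 9 role groups. Rfc1 (chromosome 5, 65261850 to 65335670, minus strand), the large subunit of RFC that is specific to loading PCNA, had 31.8, 30.9 and 31.5 FPKM in the BACH1-KO libraries, against 72.8, 76.4 and 76.8 FPKM in WT (log2 fold change -1.24, SE 0.04, adjusted p = 5.37e-08), a level 0.417 of that in WT. Rfc4 had 128, 136 and 135 FPKM in the BACH1-KO libraries, against 77.3, 82.1 and 87.0 FPKM in WT (log2 fold change 0.69, SE 0.05, adjusted p = 3.92e-06). The groups were far apart for both genes, in opposite directions. Rfc3 had 55.2, 53.8 and 53.1 FPKM in the BACH1-KO libraries, against 65.7, 65.5 and 66.0 FPKM in WT (log2 fold change -0.28, SE 0.03, adjusted p = 5.99e-05). The small subunits RFC2 to RFC5 also serve in other loaders, and of their genes Rfc5 was at 99.5 ± 3.09 FPKM in BACH1-KO and 91.7 ± 3.31 FPKM in WT (log2 fold change 0.12, adjusted p = 0.0230) and Rfc2 at 124 ± 3.05 FPKM in BACH1-KO and 123 ± 8.10 FPKM in WT. Rfc2 did not pass (log2 fold change 0.013, 95% interval -0.10 to 0.13, adjusted p = 0.825), but was higher past the threshold under quantile normalization (log2 fold change 0.17, adjusted p = 0.00880). The ratio of Rfc1 to the mean of Rfc2 to Rfc5 was 0.316, 0.298 and 0.303 in the BACH1-KO libraries, against 0.840, 0.841 and 0.812 in WT.

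Exons of Rfc4 overlap on the opposite strand with those of Eif4a2, a far more abundant gene at 458 ± 5.23 FPKM in BACH1-KO and 1125 ± 95.6 FPKM in WT, and whether strand was used in counting is not given. Eif4a2 moved against Rfc4. The call of Rfc5 was lost without the first or second WT library or the second or last knockout library (adjusted p = 0.0556 to 0.0848) and with median-of-ratios scaling (adjusted p = 0.103) or a constant prior variance (adjusted p = 0.0555). Pcna, the sliding clamp and the most abundant transcript of all 47, had 448, 430.3 and 429 FPKM in the BACH1-KO libraries, against 475, 472 and 466 FPKM in WT (log2 fold change -0.11, SE 0.03, adjusted p = 0.00754). Its libraries did not overlap, and under quantile normalization the log2 fold change was 0.044 (adjusted p = 0.179). Pseudogenes named Pcna-ps1 and Pcna-ps2 are annotated and could share reads with Pcna.

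Of the genes that protect single-stranded DNA and join the lagging strand, 4 fell and 1 rose. Lig1, the ligase that seals Okazaki fragments, had 71.2, 73.2 and 70.0 FPKM in the BACH1-KO libraries, against 121, 118 and 119.8 FPKM in WT (log2 fold change -0.74, SE 0.03, adjusted p = 2.70e-07). Rpa1, the large DNA-binding subunit of replication protein A, had 141, 141 and 140.2 FPKM in the BACH1-KO libraries, against 204, 207 and 207 FPKM in WT (log2 fold change -0.55, SE 0.03, adjusted p = 5.00e-07). Fen1, the nuclease that trims the flaps, had 44.8, 47.8 and 48.2 FPKM in the BACH1-KO libraries, against 60.2, 56.0 and 61.0 FPKM in WT (log2 fold change -0.33, SE 0.05, adjusted p = 2.53e-04). These 3 genes were lower in every knockout library than in any WT library. Exons of Fen1 overlap on the opposite strand with Tmem258, which also fell, to 384 ± 10.3 FPKM, against 633 ± 28.3 FPKM in WT. Rpa2 had 95.8, 103 and 96.4 FPKM in the BACH1-KO libraries, against 106, 106 and 113 FPKM in WT (log2 fold change -0.14, SE 0.04, adjusted p = 0.0131), a fall that was not seen under quantile normalization (log2 fold change 0.018, adjusted p = 0.701). Rpa3, the smallest subunit, was at 184 ± 10.9 FPKM in BACH1-KO and 166 ± 6.45 FPKM in WT (log2 fold change 0.15, adjusted p = 0.0235). The rise of Rpa3 was lost without the second WT library (adjusted p = 0.0813), without the last knockout library (adjusted p = 0.0767) and with median-of-ratios scaling (adjusted p = 0.0739) or a constant prior variance (adjusted p = 0.0519). Replication protein A holds its 3 subunits in equal number, and the ratio of Rpa3 to Rpa1 was 1.28, 1.248 and 1.40 in the BACH1-KO libraries, against 0.828, 0.769 and 0.825 in WT.

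Nucleotide supply genes fell with the exception of Tyms. Tk1 (chromosome 11, 117815526 to 117826092, minus strand), the thymidine kinase of the salvage path, had 67.6, 70.1 and 72.2 FPKM in the BACH1-KO libraries, against 155, 164 and 169 FPKM in WT (log2 fold change -1.20, SE 0.04, adjusted p = 1.36e-07), a level 0.430 of that in WT. Rrm1, the large subunit of ribonucleotide reductase, had 72.7, 76.4 and 72.9 FPKM in the BACH1-KO libraries, against 115, 120.2 and 119.8 FPKM in WT (log2 fold change -0.67, SE 0.03, adjusted p = 8.03e-07). Rrm2, its small and cell cycle controlled subunit, had 188, 183 and 183 FPKM in the BACH1-KO libraries, against 209, 218 and 211 FPKM in WT (log2 fold change -0.21, SE 0.03, adjusted p = 2.83e-04). All 3 genes had every knockout library below WT, by a wide gap in Tk1 and a narrow one in Rrm2. Tyms, the thymidylate synthase of the de novo path, had 23.7, 26.2 and 26.2 FPKM in the BACH1-KO libraries, against 23.1, 21.2 and 20.3 FPKM in WT (log2 fold change 0.23, SE 0.06, adjusted p = 0.00821), with all knockout libraries above WT. The ratio of Tk1 to Tyms was 2.85, 2.68 and 2.76 in the BACH1-KO libraries, against 6.70, 7.73 and 8.35 in WT, and that of Rrm2 to Rrm1 was 2.58, 2.39 and 2.51 in the BACH1-KO libraries, against 1.82, 1.82 and 1.76 in WT. The fall of Rrm2 was not past the threshold under quantile normalization (adjusted p = 0.630). The summed level of the 4 genes was 354 ± 1.98 FPKM in BACH1-KO and 515 ± 11.9 FPKM in WT. A pseudogene of Tyms is annotated, Tyms-ps. Exons of Tk1 overlap on the opposite strand with Afmid, which was at 2.14 ± 0.0773 FPKM in BACH1-KO and 1.57 ± 0.357 FPKM in WT.

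**Figure D3:**
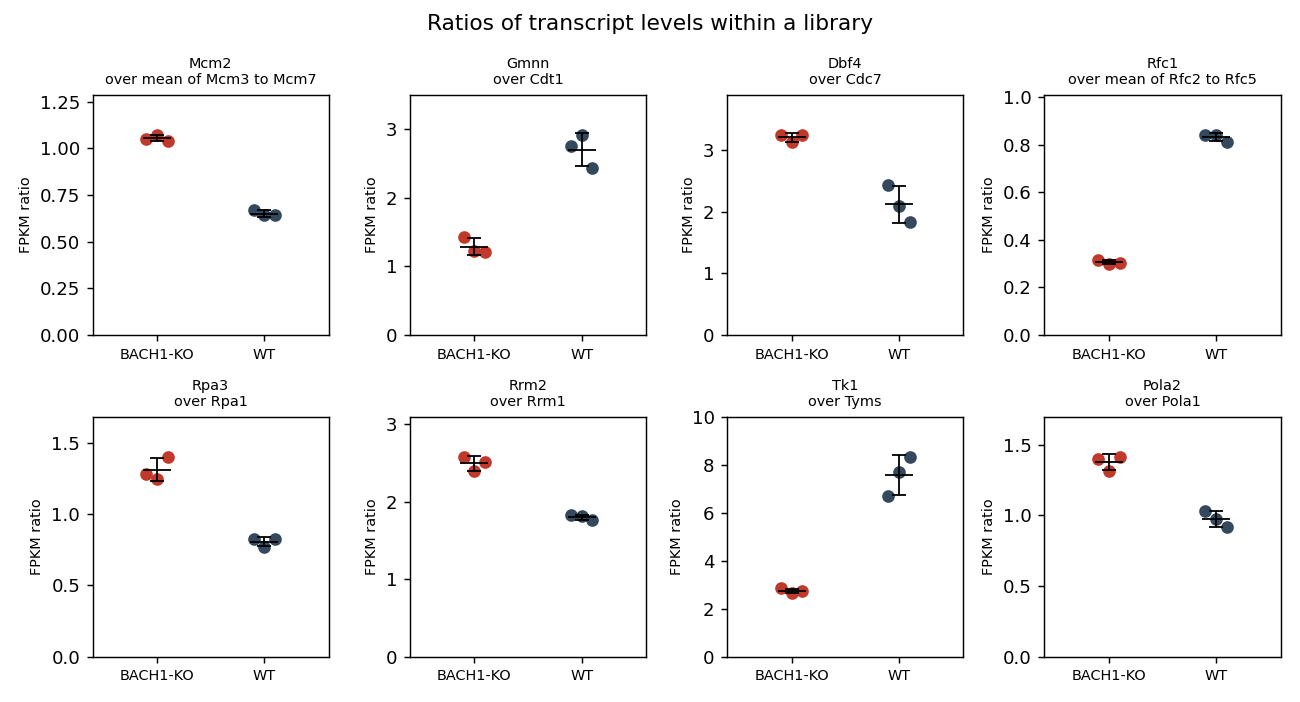
Ratio of transcript levels (FPKM over FPKM, no unit) within each library for 8 pairs or sets of replication genes, BACH1-KO left and WT right, with the mean and SD of 3 libraries per group. In each panel the genotypes do not overlap. For the ratios of Mcm2, Gmnn to Cdt1, Dbf4 to Cdc7, Rpa3 to Rpa1 and Tk1 to Tyms, this follows from the opposite directions of the genes. The ratios of Gmnn to Cdt1, Rfc1 to the mean of Rfc2 to Rfc5, and Tk1 to Tyms are lower in BACH1-KO, and the other 5 are higher.

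E2f1, an activating E2F and itself an S phase gene, had 21.9, 21.8 and 23.8 FPKM in the BACH1-KO libraries, against 17.9, 20.6 and 18.8 FPKM in WT (log2 fold change 0.23, SE 0.06, adjusted p = 0.00883). All its knockout libraries were above WT, a direction opposite to that of most helicase genes. Among the other E2F, DP, pocket protein and MuvB genes, 9 rose, 7 fell and 2 did not pass of 18. Over all tested genes, 37.3% rose and 39.7% fell. E2f4, a repressor-type E2F, was at 74.1 ± 2.83 FPKM in BACH1-KO and 117 ± 1.59 FPKM in WT (log2 fold change -0.65, adjusted p = 1.16e-06), and its partner gene Tfdp1 was at 122 ± 0.589 FPKM in BACH1-KO and 157 ± 6.70 FPKM in WT (log2 fold change -0.36, adjusted p = 3.12e-05). Of the remaining E2F genes, E2f2 fell, at 2.66 ± 0.396 FPKM in BACH1-KO and 5.69 ± 0.790 FPKM in WT (log2 fold change -0.87, adjusted p = 1.39e-04). E2f3 did not pass (log2 fold change 0.044, adjusted p = 0.530). E2f5, E2f6 and E2f7 rose (log2 fold changes 0.26, 0.39 and 0.25), and E2f8 fell (log2 fold change -0.51). Of the pocket protein genes, Rb1 rose, and Rbl1 and Rbl2 fell. Rb1, which holds E2F factors inactive, was at 8.38 ± 0.474 FPKM in BACH1-KO and 4.39 ± 0.0230 FPKM in WT (log2 fold change 0.80, adjusted p = 5.30e-06), while Rbl1, which encodes p107, was at 7.54 ± 0.418 FPKM in BACH1-KO and 16.1 ± 0.308 FPKM in WT (log2 fold change -0.999, adjusted p = 8.50e-07). Rbl2 was at 2.94 ± 0.318 FPKM in BACH1-KO and 5.31 ± 0.259 FPKM in WT (log2 fold change -0.68, adjusted p = 7.13e-05).

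Other genes of the same process also moved in both directions, and each gene named from these lists passed the threshold. Their counts stand beside 37.3% higher and 39.7% lower for all tested genes. Of the accessory replication factors 9 rose, 12 fell and 8 did not pass of 29, with a median log2 fold change of -0.088. Topbp1, which bridges kinases and the helicase at firing and also activates ATR, was at 33.4 ± 0.795 FPKM in BACH1-KO and 71.4 ± 1.89 FPKM in WT, and Atad5, the unloader of PCNA, at 11.5 ± 0.232 FPKM in BACH1-KO and 27.7 ± 0.889 FPKM in WT. Rif1, a regulator of replication timing, was at 26.2 ± 0.510 FPKM in BACH1-KO and 52.3 ± 0.411 FPKM in WT, and Mcmbp, an MCM-binding protein, at 24.1 ± 0.444 FPKM in BACH1-KO and 37.8 ± 0.286 FPKM in WT. These 4 falls had log2 fold changes of -1.07, -1.20, -0.97 and -0.63.

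In the wider nucleotide supply list 6 rose, 16 fell and 4 did not pass of 26, with a median log2 fold change of -0.24. Nme1, a nucleoside diphosphate kinase, was at 167 ± 8.66 FPKM in BACH1-KO and 308 ± 2.20 FPKM in WT (log2 fold change -0.88, adjusted p = 4.31e-07), and Mthfd1, a cytosolic folate enzyme, at 67.5 ± 0.707 FPKM in BACH1-KO and 116 ± 1.83 FPKM in WT (log2 fold change -0.77, adjusted p = 1.80e-07). Gart, of purine synthesis, was at 87.6 ± 0.544 FPKM in BACH1-KO and 138 ± 1.00 FPKM in WT (log2 fold change -0.65, adjusted p = 2.74e-07). In the other direction, Shmt2, the mitochondrial serine hydroxymethyltransferase, was at 161 ± 1.51 FPKM in BACH1-KO and 100.7 ± 2.43 FPKM in WT (log2 fold change 0.67, adjusted p = 3.99e-07).

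Of the chromatin assembly list 2 rose, 5 fell and 5 did not pass of 12. Supt16 and Ssrp1, the subunits of the histone chaperone FACT, both fell. Supt16 was at 81.5 ± 0.826 FPKM in BACH1-KO and 145 ± 1.67 FPKM in WT (log2 fold change -0.82, adjusted p = 1.12e-07), and Ssrp1 at 93.8 ± 1.36 FPKM in BACH1-KO and 124 ± 3.36 FPKM in WT (log2 fold change -0.40, adjusted p = 8.54e-06). Uhrf1, which guides maintenance methylation, was at 103 ± 2.46 FPKM in BACH1-KO and 136 ± 3.68 FPKM in WT, and the histone chaperone Asf1a was at 44.9 ± 3.10 FPKM in BACH1-KO and 21.8 ± 2.15 FPKM in WT (log2 fold change 1.01, adjusted p = 5.98e-06). Of genes that control CDT1 turnover 3 rose, 4 fell and 2 did not pass of 9. Cul4a, the scaffold of the ligase that destroys CDT1 in S phase, was at 41.0 ± 1.24 FPKM in BACH1-KO and 22.7 ± 0.508 FPKM in WT, its adaptor Ddb1 at 177 ± 4.58 FPKM in BACH1-KO and 233 ± 5.46 FPKM in WT and its RING subunit Rbx1 at 58.8 ± 1.12 FPKM in BACH1-KO and 96.1 ± 1.16 FPKM in WT. Skp2, of a second ligase that acts on CDT1, was at 21.7 ± 0.229 FPKM in BACH1-KO and 29.0 ± 0.565 FPKM in WT.

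Of the checkpoint genes 3 rose, 2 fell and 5 did not pass of 10, and the log2 fold changes ran from -0.48 to 0.28. Chek1, the main effector kinase, was at 46.2 ± 1.53 FPKM in BACH1-KO and 38.0 ± 1.89 FPKM in WT, and Atr, the kinase above it, was at 10.7 ± 0.701 FPKM in BACH1-KO and 12.7 ± 0.411 FPKM in WT. Etaa1, an activator of ATR, was at 34.4 ± 0.664 FPKM in BACH1-KO and 48.3 ± 3.24 FPKM in WT, and Rad1, a subunit of the checkpoint clamp, at 44.4 ± 0.925 FPKM in BACH1-KO and 37.3 ± 2.43 FPKM in WT. For S phase cyclins and kinases 1 rose, 3 fell and 1 did not pass of 5. Ccne1, cyclin E1, was at 91.5 ± 1.49 FPKM in BACH1-KO and 125 ± 4.55 FPKM in WT and Cdk2 at 44.0 ± 0.747 FPKM in BACH1-KO and 62.6 ± 2.03 FPKM in WT, both lower. Cdk1 was at 127 ± 2.15 FPKM in BACH1-KO and 116 ± 4.86 FPKM in WT (log2 fold change 0.14, adjusted p = 0.00901). Ccna2, cyclin A2, was at 104 ± 2.88 FPKM in BACH1-KO and 110.0 ± 1.44 FPKM in WT, a call (log2 fold change -0.081, adjusted p = 0.0467) that was lost without the second or last WT library or the first or last knockout library (adjusted p = 0.0920 to 0.152) or with a constant prior variance (adjusted p = 0.110), and its direction turned under quantile normalization (log2 fold change 0.074, adjusted p = 0.0505).

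Mitosis genes, the nearest comparison within the cell cycle, had 4 higher, 13 lower and 3 not past of 20, with a median log2 fold change of -0.43 against -0.18 for the replication genes. That difference between the lists was not tested, and the lists were not matched for level or transcript length. Mki67, the proliferation antigen, was at 8.67 ± 0.219 FPKM in BACH1-KO and 23.7 ± 0.861 FPKM in WT, and Cenpf, a kinetochore gene, at 4.64 ± 0.0415 FPKM in BACH1-KO and 16.1 ± 0.478 FPKM in WT. Kif23, a kinesin of cytokinesis, was at 33.0 ± 1.43 FPKM in BACH1-KO and 81.9 ± 2.66 FPKM in WT, and Ndc80, of the outer kinetochore, rose to 79.5 ± 1.89 FPKM, against 42.7 ± 0.666 FPKM in WT.

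**Figure D4:**
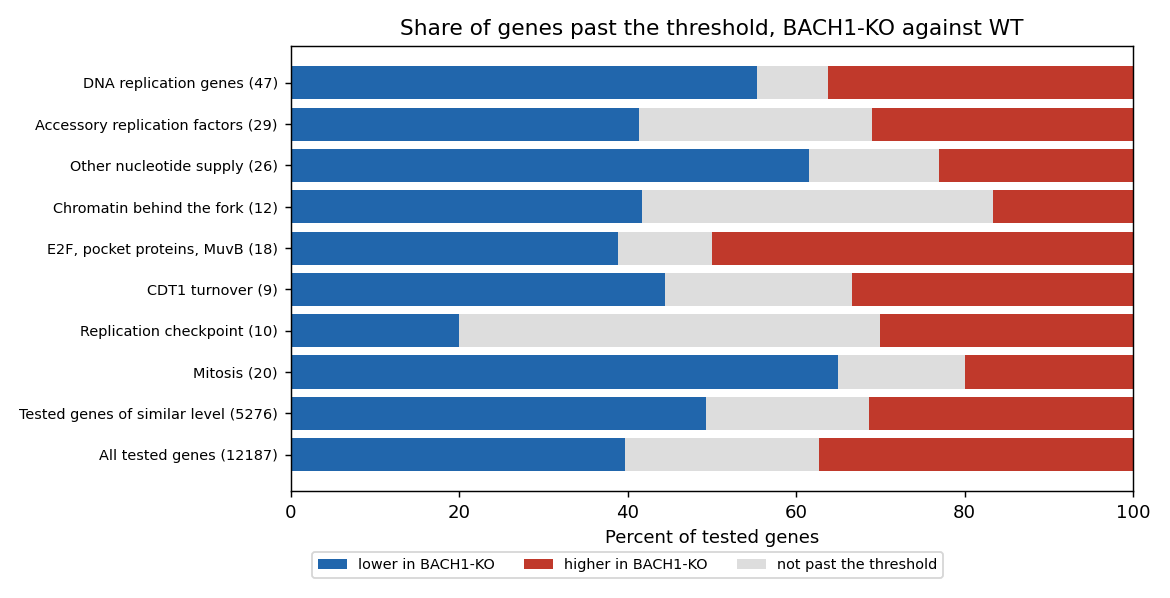
Percent of tested genes past the threshold in each list, lower in BACH1-KO in blue, higher in BACH1-KO in red and not past in grey, with the number of genes tested in brackets. The replication genes show 55.3% lower and 36.2% higher, against 49.3% and 31.3% for tested genes of similar level and 39.7% and 37.3% for all tested genes.

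As a share of the library, the 47 genes together held 0.572% to 0.580% of all FPKM in BACH1-KO and 0.627% to 0.637% in WT. Relative depth, read from the steps of low values with the first WT library as 1, was 1.00 to 1.18 in BACH1-KO and 1.00 to 1.11 in WT. All 8 stem cell markers were present in both genotypes, with a summed level of 6733 to 6988 FPKM in BACH1-KO and 10477 to 11250.0 FPKM in WT, 7 lower and 1 higher. Counts of this and the following marker lists stand beside 37.3% higher and 39.7% lower for all tested genes. All 13 hepatocyte markers rose, with a summed level of 861 to 891 FPKM in BACH1-KO and 1.197 to 7.23 FPKM in WT, where Apoh is listed at 0. The 11 fibroblast feeder markers summed to 126 to 131 FPKM in BACH1-KO and 252 to 270.3 FPKM in WT. Of the 5 feeder markers tested 1 rose and 4 fell, and most of the difference in the sum was Vim, at 54.9 ± 1.35 FPKM in BACH1-KO and 186 ± 9.31 FPKM in WT. The other 6 were under 1 FPKM on average and not tested. Of these, 5 had every BACH1-KO library above WT and Col1a1 had every one below, while the genotypes did not overlap for 79.3% of all tested genes. Among the 5, Dcn was at 0.764 ± 0.0944 FPKM in BACH1-KO and 0.0664 ± 0.0806 FPKM in WT, and Col3a1 and Lum are listed at 0 in WT. Over the whole list, 6 of 11 lay above WT and 5 below. The part of these markers in the replication genes' differences was not tested.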

How the data were processed

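RNA sequencing libraries of E14Tg2A cells, 3 BACH1-KO and 3 WT, were analysed. The authors deposited 1 FPKM value for each symbol in each library. Cufflinks and mm10 are named by the submitters' processing notes, with aligner, annotation and strand setting not given in the sources used here. No read counts were used, so absolute depth is unknown. Columns name the genotype but no sample title, so each was a replicate without number or pairing. Separate cultures are not stated, so p-values measure the spread between libraries, which may be technical. Another 23 rows with a number for a symbol, 0.0987% of the summed FPKM, were left out.

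The test was limma's moderated one (version 3.58.1, R 4.3.3, eBayes with trend, two-sided) on log2 values with a pseudocount of 1 FPKM, adjusted by Benjamini-Hochberg over the 12187 genes averaging 1 FPKM or more. The code was first tested on simulated data. Depth ratios used values under 0.1 FPKM and were searched from 0.5 to 2. Annotation was GENCODE M21 (GRCm38, the same build as mm10). The members, lists and tests were chosen with earlier results of these data known. Values in each library are given for up to 4 called members per role with the smallest adjusted p, and for Mcm2, Cdc6, Cdt1, Gmnn, Pcna, Rrm2 and E2f1. Up to 4 genes of each other list follow the same order of p. The remaining E2F and pocket protein genes were named after their values were seen. Genes named with exon overlaps were chosen after their values were seen. Stn1 was matched under its older symbol, Obfc1. Alternatives were another pseudocount (0.1), no filter or 5 FPKM, median-of-ratios and quantile scaling, a constant prior variance, a test against a 1.5-fold change and leaving out each library.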

Additional observations from a re-analysis of the deposited data

How the results depend on the processing

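Tested against a fold change of 1.5, 0 replication genes were higher and 4 lower, and 2319 of all genes passed, since this test asks for larger changes. Leaving out 1 library at a time gave 12 to 15 replication genes higher, 26 lower and 8714 to 9404 for all genes called. Of the 47 genes, 32 kept their direction and call under the other 12 alternatives. The direction turned for Orc4 (-0.013) and Rfc2 (-0.029) with median-of-ratios scaling, for Rfc2 without the first WT library (-0.041) or the last knockout library (-0.0065; -0.041 to 0.051 over the libraries left out), and under quantile normalization for Mcm3 (0.00068), Pold1 (0.021), Pcna (0.044), Rpa2 (0.018) and Ccna2 (0.074), all log2 fold changes not past the threshold there. The cause was not tested. Without absolute depth no counting error can be given. No paired analysis was possible because the columns carry no number that a sample title shares.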
